A study of Mus musculus with 16 samples.

Results

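The endothelin system of the mouse retina was followed through its 6 core genes: the peptides Edn1, Edn2 and Edn3, the receptors Ednra and Ednrb, and the converting enzyme Ece1. Members were taken by name, as every probe whose current or older gene symbol on the arrays is one of these 6. They are 6 of the 23362 genes with a usable probe, and were measured by 15 probes, of which 14 passed the filter on dim spots. Probes named for 1 gene are meant to read the same target and are not replicates, so each is given separately.

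Endothelins are short peptides that are cut from longer precursors, the last cut being made by a converting enzyme such as Ece1. They act on G protein-coupled receptors: Ednra binds Edn1 and Edn2 and drives contraction of vascular smooth muscle and pericytes, whereas Ednrb binds all 3 peptides, is found on endothelium and glia, and also clears them. In the retina, Edn1 is a constrictor made by endothelium among other cells, Edn2 is known as a transcript that injured photoreceptors induce, and Ednrb on Muller glia and astrocytes is known as its receptor.

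The study asked how the retina of C57Bl6 pups responds at 24 h to agents placed in the vitreous, on 2-colour arrays. Pups of 8 days had received 1 µg of VEGF-A, the vessel growth factor (5 samples), 4 µg of Dll4-Fc, an Fc fusion of the Notch ligand Dll4 (4 samples), or 4 µg of hFc, the Fc control (4 samples). The VEGF-A dose therefore differed in mass from its control. Another 3 samples were labelled VEGF Trap, a decoy receptor that binds VEGF, and the labels used here give neither its dose nor the age of those animals. How many animals stand behind a sample is not stated, so p-values measure the spread between these samples, which may be technical. The titles of hFc 1 and hFc 2 share a code, as do those of VEGF-A 4 and VEGF Trap 3, and what the code means is not stated. If hFc 1 and 2 are not separate samples, hFc has 3 samples in place of 4. Each sample was labelled with Cy3 and hybridised against 1 common pool of the experiment's RNA in Cy5, without dye swaps. A level here is the log2 ratio of sample to that pool, so 0 is the pool's level, and the pool holds VEGF-A retinas too.

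The 4 hFc arrays were on slide 1 and the 4 Dll4-Fc arrays on slide 2, so slide and treatment cannot be told apart in comparisons with either group. VEGF-A and VEGF Trap shared slide 3 (VEGF-A 1 and 2, VEGF Trap 1 and 2) and slide 4 (VEGF-A 3, 4 and 5, VEGF Trap 3). Between 84.9% and 91.0% of spots were well above background in Cy3 and 0 were saturated. Arrays differed in brightness, with a median Cy3 signal of 143 to 176 on the hFc and 224 to 272 on the VEGF-A arrays. Cy3 signals of single probes are given unscaled, so their contrasts between groups are not fold changes. Scanner software had marked 2350 to 2599 spots as outliers on each hFc array, against 12 to 213 on the others, and these spots were left out. Differences were tested with limma across all probes, and a probe was called at a Benjamini-Hochberg adjusted p under 0.05.

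Edn1 and Edn2 were higher in the VEGF-A retinas than in all other groups, and no probe of Edn3 passed the test. Ednra was lower on its brightest probe, A_52_P156190, while each of its dimmer probes missed the call against some group. Ednrb was slightly higher on probes A_52_P577662 and A_51_P262964. Against hFc, 8 of the 14 endothelin probes were called with VEGF-A, 5 of them higher and 3 lower, covering 4 of the 6 genes. Among all probes, 5.68% rose and 3.30% fell in that comparison. The arrays read whole retina, in which fewer cells of a type and less RNA per cell cannot be told apart.

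Edn1 was read by 1 probe, and its first 30 bases are shown to identify the transcript measured. The files place it at chr13:41748495-41748554 on the plus strand, without naming a genome build.

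Edn1 A_51_P115005: cagtaaaaatatgttcccgtatgtattgta

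The Edn1 log2 ratio was −1.13, −1.02, −0.75 and −1.24 in hFc 1 to 4, and 1.35, 1.11, 1.49, 1.41 and 1.41 in VEGF-A 1 to 5. It was −1.17, −1.52, −1.19 and −0.92 in Dll4-Fc 1 to 4, and −1.13, −0.98 and −1.10 in VEGF Trap 1 to 3. Every VEGF-A sample lay above every sample of the other 3 groups, and those 3 groups overlapped. Edn1 rose with VEGF-A by 2.39 on the log2 scale against hFc (SE 0.12, 95% interval 2.13 to 2.65), or 5.24-fold (limma, Benjamini-Hochberg adjusted p = 3.29e-09, n = 5 and 4). Its Cy3 signal was 745 to 912 on the VEGF-A arrays and 90.9 to 109 on the hFc arrays. Over 23 other settings the log2 difference ran from 1.97 to 2.48 and stayed called.

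Edn2 had 2 probes, which lie 49 bases apart at chr4:119606946-119607005 and chr4:119607055-119607114 on the plus strand. Both are shown because the comparison rests on them jointly and they share no base.

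Edn2 A_51_P482121: aggacacaattacctaagccacacctggag

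Edn2 A_51_P482123: tagctactgtacctgcttggaggagctatg

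On probe A_51_P482121, the Edn2 log2 ratio was −2.81, −2.30, −2.57 and −2.58 in hFc 1 to 4, and 1.84, 1.48, 2.49, 1.69 and 1.92 in VEGF-A 1 to 5. It was −2.39, −2.58, −2.06 and −1.70 in Dll4-Fc 1 to 4, and −1.97, −2.29 and −2.70 in VEGF Trap 1 to 3. No VEGF-A sample overlapped with another group, VEGF-A 3 was the highest, and hFc, Dll4-Fc and VEGF Trap overlapped. Edn2 rose with VEGF-A by 4.45 on the log2 scale against hFc (SE 0.22, interval 3.99 to 4.91), or 21.8-fold (limma, adjusted p = 1.87e-09). With normexp background correction and loess in place of the deposited ratio, the fold was 13.1 (log2 3.71). The second probe gave 18.9-fold (log2 4.24, SE 0.25, adjusted p = 1.45e-08), and 3.48 on the log2 scale with normexp. Its values were −2.76 to −1.88 in hFc and 1.34 to 2.47 in VEGF-A, with VEGF-A 3 again the highest. Edn2 was dim in the controls: the Cy3 signal of probe A_51_P482121 was 35.5 to 48.4 on the hFc arrays against 1116 to 2796 on the VEGF-A arrays.

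Edn3, the peptide best known for its action on Ednrb in neural crest and enteric neurons, was measured by 1 usable probe. Its log2 ratios were 0.40, 0.25, 0.15 and 0.37 in hFc, and 0.16, 0.19, −0.04, 0.01 and 0.32 in VEGF-A. Dll4-Fc samples read 0.08, 0.32, 0.21 and 0.23, and VEGF Trap samples −0.11, 0.32 and 0.16. All 4 groups overlapped, and the VEGF-A difference from hFc was −0.17 (interval −0.38 to 0.05, limma adjusted p = 0.364). The signal was low, 18.1 to 46.8 in Cy3.

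**Figure D1:**
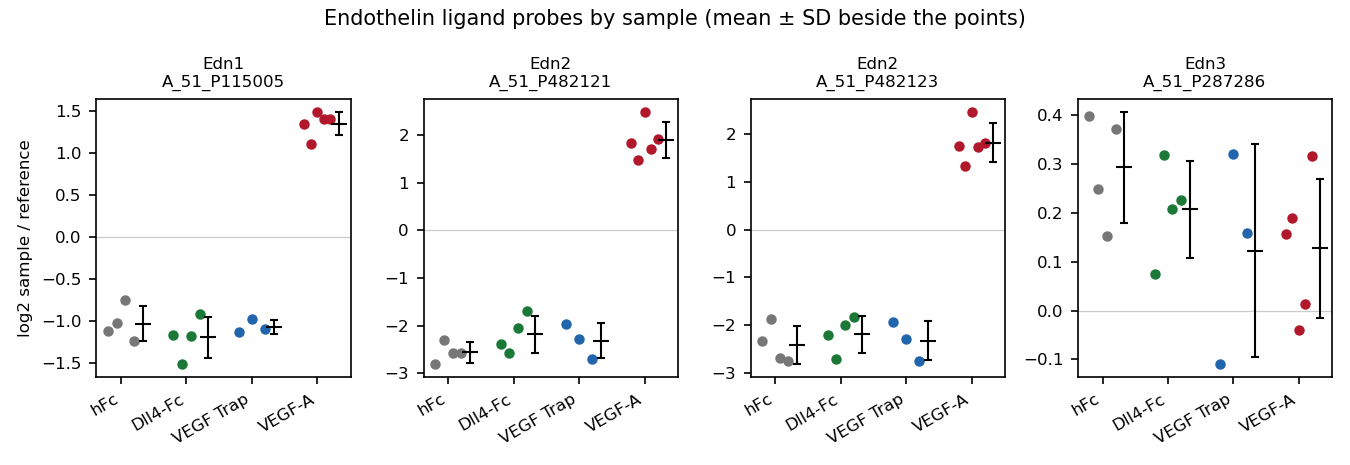
Log2 ratio of sample to the common pool (vertical axis) for the probes of Edn1, Edn2 and Edn3 in the 4 treatment groups, with a point for each array and a bar for the group mean ± SD. VEGF-A arrays stand above 1 on the Edn1 and Edn2 probes while all other arrays lie below −0.7, and Edn3 overlaps across groups.

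Ednra, the receptor that mediates contraction, was read by 4 probes spread over the gene on the minus strand of chromosome 8. Probe A_52_P156190 was by far the brightest, with Cy3 signals of 502 to 851 on the VEGF-A arrays and 1069 to 1375 on the hFc arrays. It and probe A_52_P622988, 6685 bases away, are shown because they behaved differently across slides.

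Ednra A_52_P156190: ggccctggtaactctactgggcattttccc

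Ednra A_52_P622988: gtagcaattatccctgactgacagtagtgt

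On probe A_52_P156190 at chr8:76203860-76203919, VEGF-A 1 to 5 read −1.17, −1.48, −0.81, −1.27 and −1.45. The hFc value rests on 2 arrays, hFc 1 at 0.20 and hFc 4 at 0.32, since the spots of hFc 2 (0.32) and hFc 3 (0.21) had been marked as outliers. Dll4-Fc 1 to 4 read 0.32, 0.35, 0.44 and 0.42, and VEGF Trap 1 to 3 read −0.04, 0.04 and 0.16. Every VEGF-A sample was below every other sample. Ednra fell with VEGF-A by 1.49 on the log2 scale against hFc (SE 0.15), or 2.81-fold (limma, adjusted p = 1.77e-05), and the difference was again −1.49 with the outlier spots kept.

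The other 3 Ednra probes were dimmer. The Cy3 signal of A_51_P457734 was only 15.9 to 21.2 on the hFc arrays and 17.9 to 21.3 on the VEGF-A arrays. Probe A_51_P457734, at chr8:76208590-76208649, fell by 0.48 on the log2 scale (SE 0.11, adjusted p = 0.0140), with hFc at 0.13 to 0.22 and VEGF-A at −0.59 to 0.02. Probe A_51_P417991, at chr8:76201434-76201493, fell by 1.50 on the log2 scale (SE 0.38, adjusted p = 0.0207), but was well above background on 2 of 5 VEGF-A arrays and 3 of 4 hFc arrays. With normexp correction, which adds an offset, these 2 differences were −0.20 and −0.31. Probe A_51_P457734 lost its call with only the groups compared in the fit (adjusted p = 0.0647) and with VEGF-A from slide 4 alone (−0.31, adjusted p = 0.0666). Probe A_51_P417991 lost its call without hFc 2, without hFc 4, with Cy3 alone (adjusted p = 0.0770) and with VEGF-A from slide 4 alone (−1.09, adjusted p = 0.0958).

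Probe A_52_P622988, at chr8:76210605-76210664, did not pass the test against hFc (log2 −0.998, SE 0.33, adjusted p = 0.0766). VEGF-A 1 and 2 on slide 3 read 0.29 and −0.05, whereas VEGF-A 3, 4 and 5 on slide 4 read −1.17, −1.23 and −1.48. The hFc samples read 0.50, −0.19, 0.12 and 0.64, Dll4-Fc −0.01, 0.72, −0.12 and 0.14, and VEGF Trap 0.32, 0.49 and 0.44. The 3 slide 4 VEGF-A samples thus lay below all others, and the slide 3 pair within the other groups. Taking VEGF-A from slide 3 alone, the difference from hFc was −0.15 (adjusted p = 0.772), and taking it from slide 4 alone gave −1.56 (adjusted p = 0.000391). Leaving out VEGF-A 1 gave −1.25 (adjusted p = 0.0131) and leaving out VEGF-A 2 gave −1.17 (adjusted p = 0.0452). In VEGF-A against VEGF Trap, the difference on slide 4 minus that on slide 3 was −1.45 (SE 0.25). That interaction, added after the values were seen, had an unadjusted p of 0.00117 and an adjusted p of 0.209 in limma, where 9 of 39788 probes passed. The brightest Ednra probe did not show such a split: its difference from hFc was −1.58 with slide 3 and −1.43 with slide 4, both called.

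**Figure D2:**
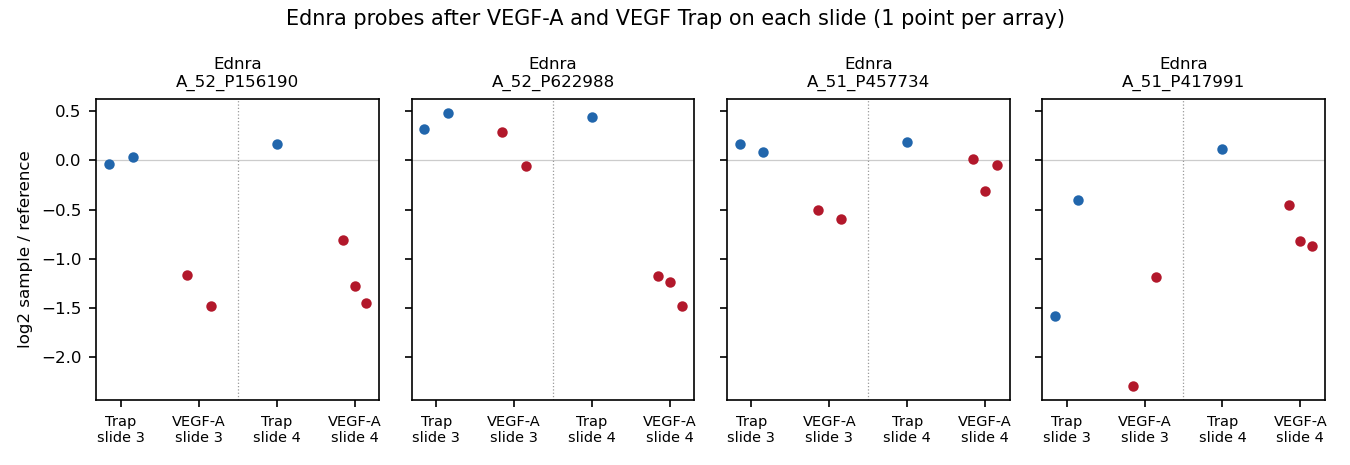
Log2 ratio to the pool (vertical axis) for the 4 Ednra probes on the VEGF Trap (blue) and VEGF-A (red) arrays of slides 3 and 4, a point for each array. On probe A_52_P622988 the VEGF-A points lie at 0.29 and −0.05 on slide 3 and between −1.48 and −1.17 on slide 4, whereas on probe A_52_P156190 they lie between −1.48 and −0.81 over both slides.

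Ednrb, the receptor of endothelium and glia, had 3 probes. Of these, A_52_P577662 (chr14:98247658-98247717, minus strand) was the brightest, with a Cy3 signal of 857 to 2117. On it, hFc 1 to 4 read 0.02, 0.08, −0.02 and −0.14, and VEGF-A 1 to 5 read 0.53, 0.54, 0.31, 0.52 and 0.24. Dll4-Fc 1 to 4 read −0.24, −0.56, −0.06 and 0.00, and VEGF Trap 1 to 3 read −0.18, −0.11 and −0.19. All VEGF-A samples were above all others, by a small margin over hFc. The rise against hFc was 0.44 on the log2 scale (SE 0.11, interval 0.21 to 0.67), or 1.36-fold (limma, adjusted p = 0.0169). It fell short of the threshold without hFc 4 (0.40, adjusted p = 0.0564) and with VEGF-A from slide 4 alone (0.37, adjusted p = 0.104).

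Probe A_51_P262964 of Ednrb rose by 0.39 (SE 0.10), or 1.31-fold (adjusted p = 0.0312), with hFc at 0.00 to 0.14 and VEGF-A at 0.21 to 0.70. Over all 22 other settings its limma adjusted p ran from 0.00898 to 0.142, and the call was lost in 13 of them. One of these 13 took the mean of hFc 1 and 2 as 1 sample (0.39, adjusted p = 0.0638). The third probe, A_66_P101709, did not pass (0.48, SE 0.16, adjusted p = 0.0768). The files place it on the opposite strand, 2181245 bases from A_52_P577662, and whether it reads the same transcript was not tested.

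**Figure D3:**
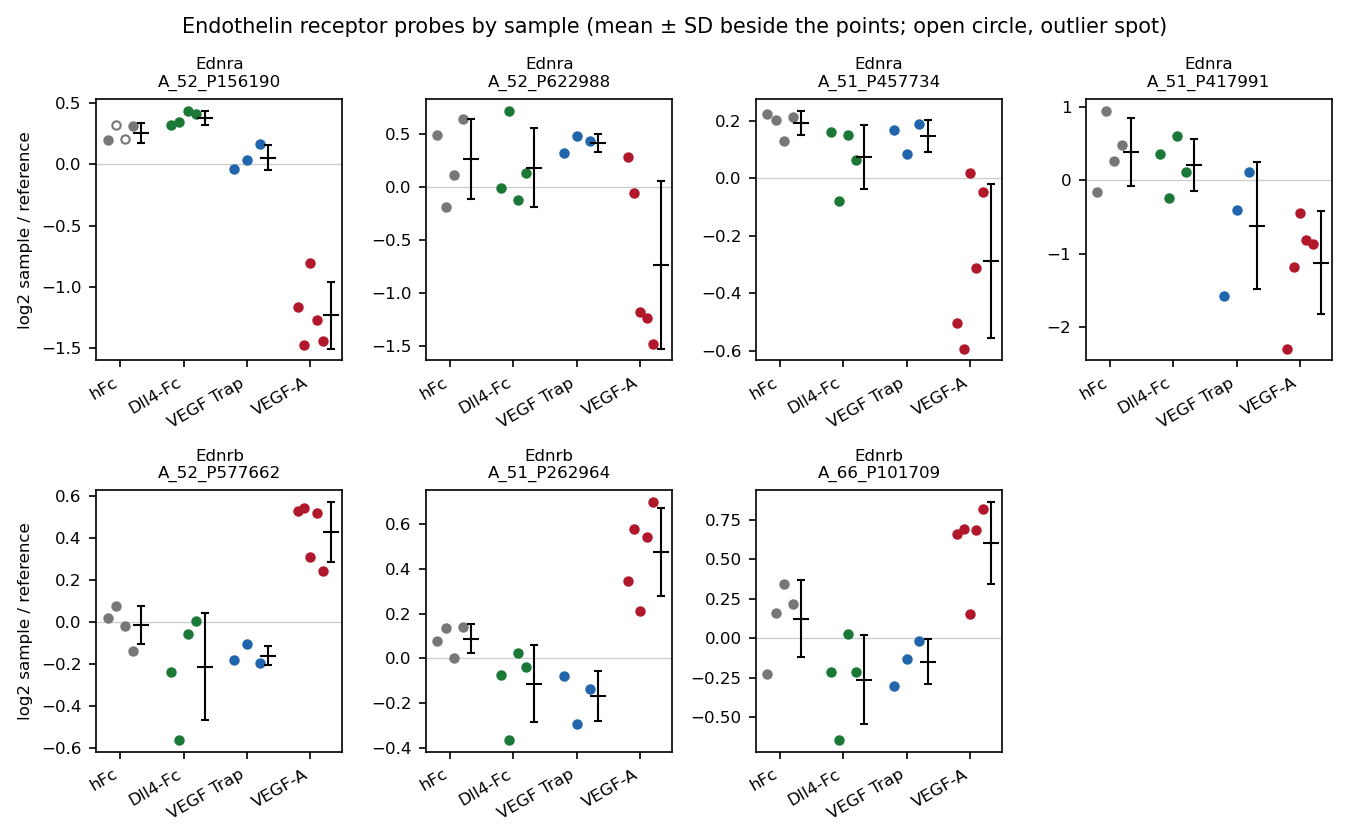
Log2 ratio of sample to the pool (vertical axis, its range set for each panel) for the 7 probes of Ednra and Ednrb in the 4 groups, with a point for each array, open circles for outlier spots, and the mean ± SD beside the points. VEGF-A arrays lie below the other groups on the bright Ednra probe A_52_P156190 and above them, between 0.24 and 0.54, on the Ednrb probe A_52_P577662.

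Ece1, the enzyme that makes the active peptide, had 3 probes, and none passed the test against hFc with VEGF-A. The differences were 0.16 (interval 0.00 to 0.32, adjusted p = 0.228), 0.21 (adjusted p = 0.524) and 0.05 (adjusted p = 0.937). On the first of these, A_52_P635278, hFc samples read −0.00, −0.16, −0.13 and −0.15 and VEGF-A samples 0.04, 0.04, 0.22, 0.03 and −0.07. The groups overlapped, and a rise above 0.32 on the log2 scale lies outside that probe's interval.

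With Dll4-Fc, none of the 14 endothelin probes was called against hFc in limma. Their log2 differences ran from −0.38 to 0.38, and 1 probe, A_66_P101709 named Ednrb, was under 0.05 without adjustment (−0.38, adjusted p = 0.340). No member was called in any of 20 other settings. Among all probes, 2.65% rose and 1.37% fell. Edn1 differed by −0.16 (interval −0.44 to 0.11). The Edn2 probes differed by 0.38 (A_51_P482121, interval −0.11 to 0.87) and 0.23 (A_51_P482123, interval −0.34 to 0.79). A change of the size seen with VEGF-A lies outside each of these intervals.

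With VEGF Trap against hFc, none of the 14 was called either, nor in any of 21 other settings. Here 3 probes had an unadjusted p under 0.05, all lower: A_51_P466423 of Ece1 (−0.78, adjusted p = 0.120), A_51_P417991 of Ednra (interval −1.92 to −0.08) and A_51_P262964 of Ednrb (−0.26). Both of the first pair were dim, with Cy3 signals under 12. Among all probes, 0.903% rose and 1.79% fell. Edn1 differed by −0.04 (interval −0.34 to 0.26). The Edn2 probes differed by 0.24 (A_51_P482121, interval −0.28 to 0.77) and 0.09 (A_51_P482123, interval −0.52 to 0.70). The 3 comparisons with hFc share the same control arrays.

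VEGF-A and VEGF Trap were compared on shared slides. Of the 14 probes, 10 were called, 7 higher and 3 lower with VEGF-A, where 9.76% of all probes rose and 7.11% fell. Edn1 was 5.37-fold higher (log2 2.43, adjusted p = 4.67e-09), and the Edn2 probes 18.4-fold and 17.7-fold higher. Within slide 3 the Edn1 difference was 2.29 and within slide 4 it was 2.54. Edn2 probe A_51_P482121 gave 3.79 within slide 3 and 4.74 within slide 4, and probe A_51_P482123 gave 3.66 and 4.75. Only 1 VEGF Trap array was present on slide 4. Ednra probe A_52_P156190 was 2.44-fold lower (log2 −1.29, adjusted p = 1.55e-05), with −1.32 within slide 3 and −1.34 within slide 4, the latter not called (adjusted p = 0.162). Whether A_66_P101709 reads Ednrb was not tested. All 3 probes named Ednrb rose, by 0.59 (A_52_P577662), 0.64 (A_51_P262964) and 0.75 (A_66_P101709), and stayed called with slide as a block. Within slide 4, with its 1 VEGF Trap array, they gave 0.55, 0.62 and 0.57, none called (adjusted p = 0.212, 0.281 and 0.406). Within slide 3, A_51_P262964 gave 0.65 and was not called (adjusted p = 0.0895). The call of A_66_P101709 was also lost with Cy3 alone (adjusted p = 0.0936) and with the deposited value table (adjusted p = 0.0831).

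Ednra probe A_51_P417991 was not called in that comparison (−0.50, limma adjusted p = 0.452), and some calls were lost under other settings. Ednra probe A_52_P622988 fell by 1.15 on the log2 scale (adjusted p = 0.0395) and lost its call in 11 of 20 other settings. With slide as a block the value was −0.91 (adjusted p = 0.0916), and within slide 3 it was −0.29 (adjusted p = 0.363). Ece1 probe A_51_P466423 rose by 0.83 (adjusted p = 0.0333), although the groups overlapped. That Ece1 probe lost its call in 12 of 19 other settings, among them slide as a block (0.73, adjusted p = 0.0966) and normexp (0.06). Ednra probe A_51_P457734 fell by 0.43 on the log2 scale (adjusted p = 0.0257) and lost its call in 7 of 20 other settings, among them normexp (−0.17, adjusted p = 0.0889), only the groups compared (adjusted p = 0.105) and slide 4 alone (−0.30, adjusted p = 0.433). The other 4 of the 7 each left out 1 array: VEGF-A 1, VEGF-A 4, VEGF Trap 1 or VEGF Trap 3.

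Dll4-Fc against VEGF-A called 8 of the 14 probes, 2 higher and 6 lower, where 5.42% of all probes rose and 6.71% fell. Edn1 was 5.87-fold lower (log2 −2.55, adjusted p = 2.27e-09) and the Edn2 probes 16.7-fold and 16.1-fold lower. Ednra probe A_52_P156190 was 3.07-fold higher with Dll4-Fc (log2 1.62, adjusted p = 8.41e-07). The other higher call was the dim Ednra probe A_51_P417991 (1.33, adjusted p = 0.0318), which was lost in 8 of 20 other settings. These were normexp (0.26, adjusted p = 0.0761), Cy3 alone (adjusted p = 0.0655), VEGF-A from slide 4 alone, and leaving out Dll4-Fc 1, 3 or 4 or VEGF-A 1 or 2. All 3 probes named Ednrb fell, by 0.59 (A_51_P262964), 0.64 (A_52_P577662) and 0.86 (A_66_P101709, not tested to read Ednrb) on the log2 scale. Ednra probes A_51_P457734 (0.36, limma adjusted p = 0.0530) and A_52_P622988 (0.91, adjusted p = 0.0930) were not called, nor was any Edn3 or Ece1 probe.

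**Figure D4:**
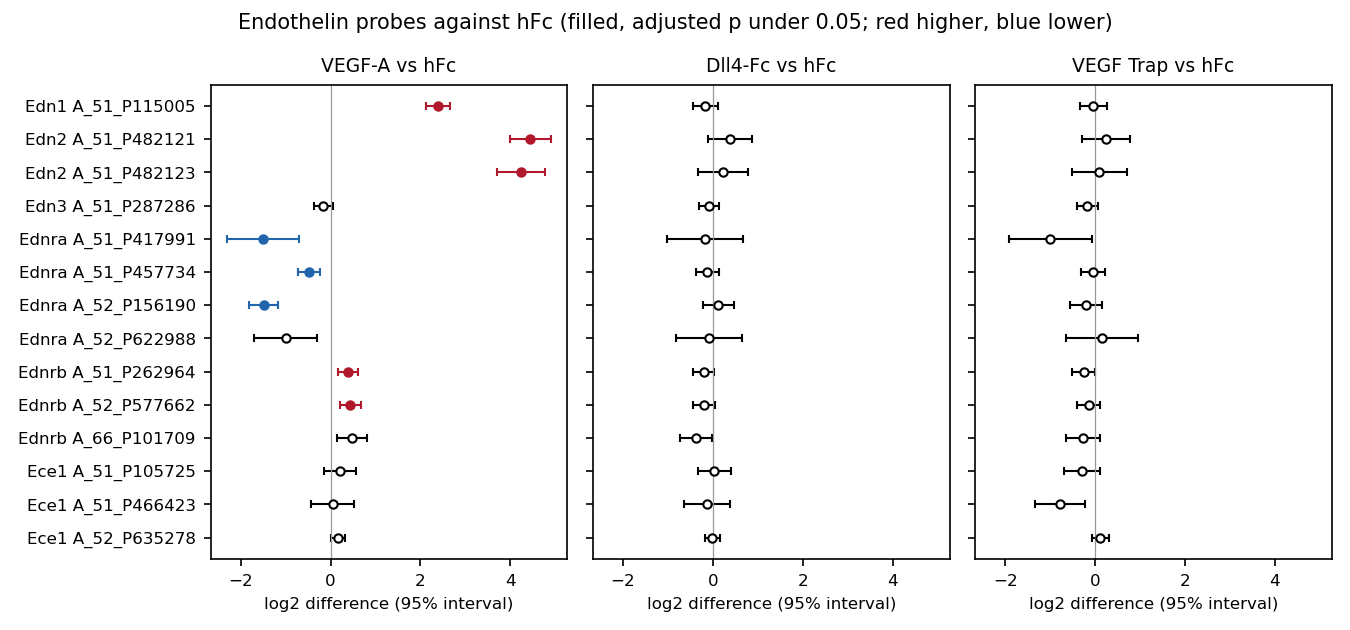
Log2 difference from hFc (horizontal axis) for the 14 endothelin probes with VEGF-A, Dll4-Fc and VEGF Trap, the lines giving 95% intervals from limma and filled points the called probes (red higher, blue lower). With VEGF-A the Edn2 probes lie farthest from 0, at 4.45 and 4.24, whereas no point is filled for Dll4-Fc or VEGF Trap.

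The starts of Edn1 and Edn2 are shown because both genes rose with VEGF-A. They come from RefSeq (GRCm38.p6) and run from 250 bases before the annotated start to 30 after it, on the plus strand: chr13:42301226-42301505 for Edn1 and chr4:120160956-120161235 for Edn2. These coordinates are of another source than those of the probes. Capitals mark matches, on either strand, to any of 3 motifs. AP-1 was searched as TGANTCA. Factors of the GATA family were searched as AGATAA. The hypoxia-inducible factors were searched as ACGTG.

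Edn1 promoter: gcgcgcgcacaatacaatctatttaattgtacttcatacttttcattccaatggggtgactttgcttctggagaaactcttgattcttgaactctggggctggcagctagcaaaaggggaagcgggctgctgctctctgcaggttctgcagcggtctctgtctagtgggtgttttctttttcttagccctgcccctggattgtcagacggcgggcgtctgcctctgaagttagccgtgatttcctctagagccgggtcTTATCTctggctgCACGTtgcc

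Edn2 promoter: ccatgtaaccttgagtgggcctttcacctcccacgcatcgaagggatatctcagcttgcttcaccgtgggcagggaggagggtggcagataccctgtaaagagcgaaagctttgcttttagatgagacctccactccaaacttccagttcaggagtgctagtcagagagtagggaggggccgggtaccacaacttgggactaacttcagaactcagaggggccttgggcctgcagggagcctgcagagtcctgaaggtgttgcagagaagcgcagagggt

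The Edn1 window holds TTATCT, the reverse complement of the GATA motif, at bases 9 to 14 after the start, and CACGT, the reverse complement of the hypoxia motif, at bases 22 to 26. The Edn2 window holds none of the 3 motifs. Among 32851 windows of this length, 7.46% held the AP-1 motif, 10.7% the GATA motif and 18.5% the hypoxia motif. A match describes letters, not binding.

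The rest of the pathway was read through lists of genes chosen with earlier results of these data known. Their counts therefore cannot be tested against the share over all genes. Each gene was read with 1 probe per gene, the brightest. At that level, 5.70% of genes rose and 3.78% fell with VEGF-A against hFc, with a median log2 difference of −0.05 over all genes. The list of transcription factors known to act on Edn1 does not separate those that raise it from those that lower it. Of these 10 factors, 3 rose and 0 fell, with a median of 0.22. They were Gata2, a factor of endothelial cells (2.10, adjusted p = 4.05e-09), Fos, a subunit of AP-1 (1.34, adjusted p = 4.74e-06), and Klf2, which responds to flow (0.65, adjusted p = 0.00219).

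Of 10 genes of the retinal injury response in which Edn2 is known, 9 were measured (Lif was not), and 6 rose with VEGF-A while 0 fell (median 0.96). Examples were Gfap, the filament protein of reactive glia (2.36, adjusted p = 4.45e-08), the growth factor Fgf2 (1.97) and Osmr, the receptor of oncostatin M (1.48). With Dll4-Fc against hFc, 3 of the same 9 rose and 0 fell (median 0.39): Gfap (1.13), Stat3 (0.55) and the acute-phase protein Serpina3n (1.71). At 1 probe per gene, 2.94% rose and 1.43% fell in that comparison. There the Edn2 probes differed by 0.38 (A_51_P482121, interval −0.11 to 0.87) and 0.23 (A_51_P482123, interval −0.34 to 0.79), neither called. With VEGF Trap, 0 of the 9 were called (median 0.02), where 1.02% of genes rose and 1.89% fell.

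Among the 10 genes listed for endothelin processing and breakdown, 8 had a value against hFc, and 1 fell with VEGF-A. It was Ecel1, listed as a relative of the converting enzymes (−0.27, limma adjusted p = 0.0474). Whether Ecel1 acts on endothelins was not tested. Below the receptors, 2 of 25 G proteins, kinases and arrestins with a value rose (Gna12 by 0.32, Plcb3 by 0.25) and 2 fell (Plcb1 by 0.50 and Plcb4 by 0.40 on the log2 scale), with a median of −0.03. Of 5 RGS proteins, which shut off G proteins, 2 fell: Rgs2 at −0.51 (adjusted p = 0.000375) and Rgs16 at −0.34 (adjusted p = 0.0406). With VEGF Trap against hFc, Rgs2 rose by 0.65 (adjusted p = 0.00151).

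Of 12 other genes of vessel tone, 11 had a value and 3 rose with VEGF-A (median 0.13). They were the nitric oxide synthases Nos2 (1.54, adjusted p = 1.52e-08) and Nos3 (0.88, adjusted p = 2.83e-05), and the prostacyclin synthase Ptgis (1.64, adjusted p = 0.000842), enzymes that make dilators. Nos2 fell by 0.88 on the log2 scale with VEGF Trap (adjusted p = 0.000583). Calcrl, the receptor of adrenomedullin, fell by 0.99 with Dll4-Fc (adjusted p = 0.0221).

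**Figure D5:**
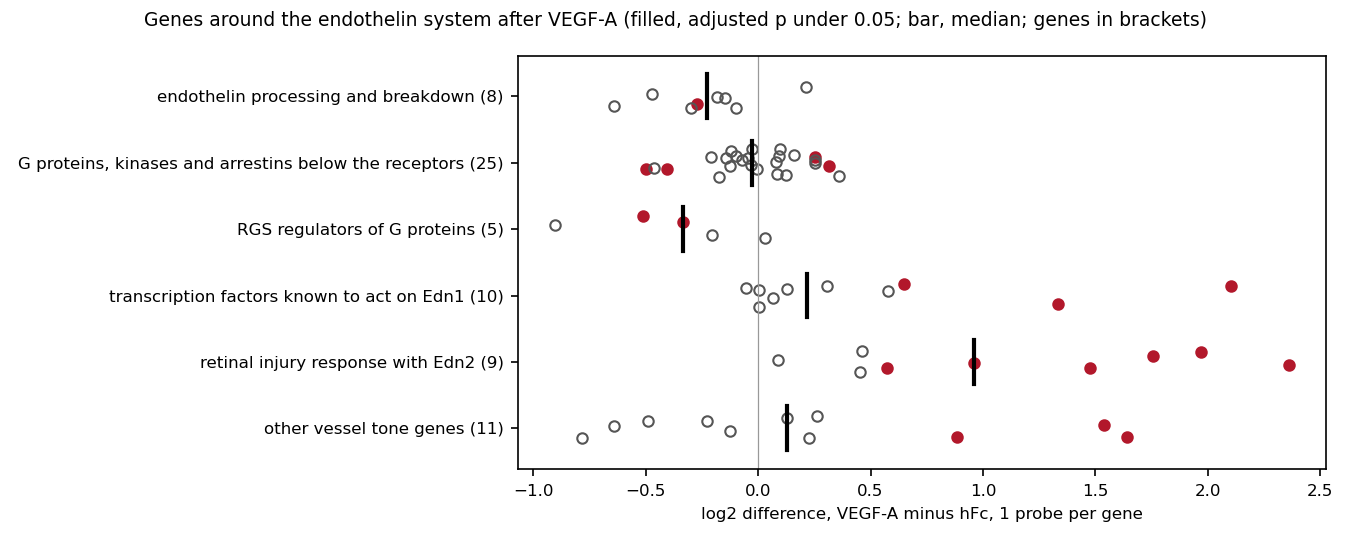
Log2 difference between VEGF-A and hFc (horizontal axis) for each gene with a value in the 6 pathway lists, with called genes filled, the list median as a bar and the number of genes in brackets. The injury list has 6 filled points, all on the higher side, and the highest median, 0.96. The lists were chosen with earlier results of these data known.

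In VEGF-A against VEGF Trap, 7 of 9 injury genes rose and 0 fell (median 0.91), and 4 of 10 transcription factors rose. Gata2 was 2.62 higher on the log2 scale. There 10.1% of genes rose and 7.94% fell at 1 probe per gene. In Dll4-Fc against VEGF-A, 1 of the 9 injury genes rose and 6 fell (median −0.41), where 6.06% of genes rose and 6.69% fell.

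Cell type markers also differed between the groups. Of 8 endothelial markers, 6 rose with VEGF-A against hFc, among them Icam2 (1.64), Pecam1 (1.31) and Esam (0.99), and 1 fell, Cldn5 (−0.34). Their summed Cy3 signal, in units of each array's 75th percentile, was 22.2 to 27.6 with VEGF-A, 17.9 to 21.5 with hFc, 22.7 to 26.8 with Dll4-Fc and 12.02 to 13.5 with VEGF Trap. All 8 fell with VEGF Trap against hFc, where Edn1 was not called. The summed signals of Dll4-Fc and VEGF-A overlapped, but the mean log2 ratio of the 8 markers was −0.25 to −0.09 with Dll4-Fc and 0.57 to 0.72 with VEGF-A, without overlap. Against VEGF-A, 6 of the 8 fell and 1 rose with Dll4-Fc (median −0.90), and against hFc 1 rose and 0 fell.

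Pericytes and smooth muscle, the cells in which Ednra is known, gave a divided list. Of 10 mural markers, 4 rose with VEGF-A, among them the contractile genes Acta2 (4.25) and Tagln (3.96) and the filament gene Des (1.85). Another 3 fell, the potassium channel subunits Kcnj8 (−2.13) and Abcc9 (−0.82) and the peptidase Anpep (−1.42). The summed signal was 32.5 to 41.3 with VEGF-A, 7.50 to 8.88 with hFc, 7.51 to 8.55 with Dll4-Fc and 6.14 to 7.62 with VEGF Trap. The mean log2 ratio of the 10 markers was 0.25 to 0.34 with VEGF-A and −0.69 to −0.36 with hFc. Their median difference was 0.39. Each of the 10 was above background on all 16 arrays.

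Of 6 astrocyte markers, 2 rose with VEGF-A, among them Gfap, which is also on the injury list, and 0 fell (median 0.06). Sums were 10.03 to 12.2 against 8.25 to 8.92 in hFc. Of 8 Muller glia markers, 2 rose (Vim by 1.89, Slc1a3 by 0.81) and 2 fell (Glul at −1.53, Aqp4 at −1.79), with a median of 0.05. Sums were 94.4 to 115 with VEGF-A and 86.8 to 93.3 with hFc. Their mean log2 ratio overlapped, at −0.11 to 0.20 with VEGF-A and −0.07 to 0.06 with hFc. With Dll4-Fc, 6 of those 8 fell and 0 rose, with sums of 50.4 to 80.4. The probes named Ednrb differed there from hFc by −0.20, −0.20 and −0.38, none called. Photoreceptors are the known source of Edn2 after injury, and 0 of their 8 measured markers were called by limma with VEGF-A against hFc, with 1 at an unadjusted p under 0.05. In the same comparison, 1 of 7 ganglion cell markers fell (Pou4f2, −0.85) and 0 rose. Their median was −0.51, with sums of 20.3 to 44.1 with VEGF-A and 39.5 to 44.8 with hFc. Of 6 microglial markers, 5 rose and 1 fell with Dll4-Fc, with sums of 8.85 to 10.2 against 4.83 to 5.95 in hFc. Markers of the pigment epithelium and of the lens, tissues next to the retina, gave 0 calls against hFc, although the summed lens signal ran from 8.12 to 105 within hFc alone. What part these cell types have in the endothelin values was not tested.

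The genes most like each member across arrays were listed by Pearson r of the log2 ratios, as a description. The arrays share 1 reference pool and the difference between VEGF-A and the other groups. Edn1 was closest to Csrp1 (r = 0.994, 14 arrays), Ptgfr (r = 0.993, 16 arrays) and Tnfrsf12a (r = 0.992, 13 arrays), out of 18450 genes. Edn2 was closest to Lad1 (r = 0.992, 16 arrays), Csrp1 (r = 0.990, 14 arrays) and Anxa5 (r = 0.990, 16 arrays). These 5 genes rose against hFc by 1.60 (Anxa5) to 3.14 (Ptgfr).

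Ednra was closest to Rflnb (r = 0.978, 13 arrays), Slc38a5 (r = 0.978, 12 arrays) and Slco1c1 (r = 0.976, 14 arrays). Slco1c1, a thyroid hormone transporter of the blood-brain barrier, fell by 3.28 on the log2 scale with VEGF-A. Ednrb was closest to Gspt1 (r = 0.942), Rab7b (r = 0.937) and Cspp1 (r = 0.935). For Edn3 and Ece1, whose groups overlapped, the highest values were 0.872 (Prrt1) and 0.888 (Xylb).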

How the data were processed

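Retinal RNA of 16 samples was hybridised to 2-colour 60-base arrays. Agilent Feature Extraction 9.5.1.1 is named in the submitters' processing notes. The authors deposited, per the file headers, background-subtracted and dye-normalized fluorescence intensity for each spot and a log10 ratio of Cy5 (pool) over Cy3 (sample). A deposited value table holds a natural log ratio of sample over pool. It was not centred (medians −0.00581 to 0.0218) and served as an alternative.

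The log10 ratio was turned into log2 sample over pool. Control and outlier spots were left out, spots of 1 probe were averaged, and a probe was kept if its Cy3 signal was well above background on 3 or more of the 16 arrays (39788 of 43426). Comparisons with hFc tested the kept probes that had a value in both groups. limma 3.58.1 in R 4.3.3 fitted the 4 groups at once, with Benjamini-Hochberg adjustment over all probes. The script was tested on simulated data. Alternatives were normexp (offset 50) with loess, Cy3 alone, the deposited value table, outlier spots kept, other filters, 1 probe per gene, slide as a block or alone, ratios of exactly 0 left out, and each replicate left out. The number of arrays limits the precision.

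The members and lists were chosen with earlier results of these data known. Named genes are all member probes, up to 3 called genes per list, direction and comparison with the smallest p, and the 3 genes most like each member. Gene symbols of the array design were updated through RefSeq accessions and older symbols: 25775 probes matched by accession, 7185 by symbol and 3283 by older symbol, and 7183 kept the file's name.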

Additional observations from a re-analysis of the deposited data

Results flagged for a closer look

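One value stood apart within its group. On A_66_P101709, a probe named Ednrb, VEGF-A 3 read 0.156 on the log2 scale, while the other 4 VEGF-A samples read 0.66 to 0.82. Its gap to the nearest sample was 0.763 of the group's range, above the critical value of 0.71 for 5 samples. In all, 41 groups of 4 or 5 values were examined for the 14 endothelin probes and this was the only one past its limit, where chance gives about 1 in 20. Without VEGF-A 3 that probe passed the test against hFc.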

How the results depend on the processing

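No endothelin value that had been called changed sign under any alternative. Of 1445 single-probe values, 1363 stayed on their side of the threshold, 66 lost a call and 16 gained one, and 14 of 26 called results kept their call throughout. The count of endothelin probes called in VEGF-A against hFc (8) was 4 with 1 probe per gene, where fewer probes were counted, 5 with the treated arrays of slide 4 only, and 5 (without hFc 4) to 9 when single replicates were left out. In VEGF-A against VEGF Trap (10) it was 4 with 1 probe per gene and 3 within slide 4, where 1 VEGF Trap array is assumed to vary like the other samples. In Dll4-Fc against VEGF-A (8) it was 4 with 1 probe per gene. Over all probes, VEGF Trap against hFc (1046) gave 2503 with normexp, 388 with Cy3 alone, 556 with only the groups compared, 539 with hFc 1 and 2 averaged (their titles share a code, so they may not be separate samples), 469 with slide 3 only, 180 with slide 4 only and 259 (without VEGF Trap 1) to 933 with single replicates left out. VEGF-A against VEGF Trap (6714) gave 2417 within slide 3, 414 within slide 4 and 4173 (without VEGF Trap 1) to 6609 with single replicates left out, and Dll4-Fc against VEGF-A (4828) gave 3101 with 1 probe per gene. Beyond the smaller number of probes or arrays, the cause was not tested. No paired analysis was possible because only 1 pair of samples in different groups, VEGF-A 4 and VEGF Trap 3, shares a title code, and its meaning is not stated. Dim probes limit what could be seen. Among them were those of Edn3, Ece1 A_51_P466423, Ednra A_51_P417991 and A_51_P457734, and A_66_P101709.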

Other observations

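The second Edn3 probe, A_52_P20753, was well above background on 2 of 16 arrays, 1 of Dll4-Fc and 1 of VEGF Trap, and its deposited ratio was exactly 0 on 10 arrays. Values of exactly 0 also stood for the Ece1 probe A_51_P466423 in hFc 2 and VEGF-A 5. With such ratios left out, its difference between VEGF-A and VEGF Trap was 0.73 (limma, Benjamini-Hochberg adjusted p = 0.0578), an alternative chosen after seeing the data.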
